A study of Mus musculus with 8 samples.

Results

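The MHC class I presentation genes are 10 of the 48709 genes in a count table of 8 mouse lung tumors. They were picked by function, as the rows whose Ensembl identifiers carry the GENCODE M21 symbols *H2-K1*, *H2-D1*, *B2m*, *Tap1*, *Tap2*, *Tapbp*, *Psmb8*, *Psmb9*, *Erap1* and *Nlrc5*. All 10 were found, and all 10 passed the filter on low counts that kept 14929 genes. mRNA was sequenced from 4 tumors labelled *K-Ctrl* and 4 labelled *K-Setd2KO*, and the comparison asks whether inactivation of *Setd2*, whose product trimethylates histone H3 at lysine 36, goes with a change in the mRNA of these genes.

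Both groups came from mice of mixed B6J/129S4vJae background. The mice were infected through the airway with the lentivirus LentiCRISPRv2Cre, which delivers Cre and a CRISPR guide to the same cells. According to the study, the guide targeted *GFP* (sgGFP) in *K-Ctrl* and *Setd2* (sgSetd2) in *K-Setd2KO*, and the tumors compared were low-grade adenomas. The study gives only an upper age at which tumors were started, for its models as a whole. The age of these mice at collection, and whether the tumors of a group came from separate mice, are not given in the sources used here, so p-values measure the spread between these samples. The design text describes frozen tumors while the extraction text mentions cell lines. Leukocyte, endothelial and fibroblast transcripts were present in every library, next to 21506 to 32459 CPM of *Sftpc*, the surfactant gene of alveolar type 2 cells, and the samples are called tumors here. The libraries held 5806599 to 21290402 counts. *Setd2* mRNA measured 153, 138, 132 and 138 CPM in the controls, against 145, 121, 124 and 153 CPM in *K-Setd2KO*, each group in the order of replicates 1 to 4. The groups overlapped, with a log2 fold change of -0.046 (SE 0.12, adjusted p = 0.824), and the count over the whole gene does not show whether the guide had cut.

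MHC class I molecules show peptides from inside the cell to CD8 T cells. The proteasome cuts proteins into peptides, and under interferon-gamma 3 of its catalytic subunits are exchanged for immunoproteasome subunits. The transporter TAP carries the peptides into the endoplasmic reticulum, where ERAP1 trims them and tapasin helps to load them on a heavy chain paired with beta-2 microglobulin. NLRC5 switches on many genes of this route by joining a protein complex on their shared S, X and Y promoter boxes, and loss of class I presentation is a known way for tumor cells to escape T cells.

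The promoter sequences of the heavy chain and light chain genes are shown because their mRNAs varied together from tumor to tumor, as described after them. RefSeq windows on GRCm38.p6 matched 8 of the 10 genes, all but *Tap2* and *Nlrc5*, and the 250 bases before each start site were searched on both strands. Capitals mark TGACG (the core of the X2 box), CCAAT or its complement ATTGG (the Y box), AANNGAAA or its complement (the core that interferon regulatory factors bind) and the kB consensus of NF-kB, with no 2 kinds of match overlapping. In *H2-K1* (chr17:34000359-34000388, minus strand), *H2-D1* (chr17:35262993-35263022, plus strand) and *B2m* (chr2:122147609-122147638, plus strand), an X2 core stood exactly 20 bases before an inverted Y box. The stretches shown for *H2-D1* precede its RefSeq start but lie in an exon and UTR of an *H2-D1* transcript in GENCODE M21, whose gene bounds are given with its values.
H2-K1 X2 to Y: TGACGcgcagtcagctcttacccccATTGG
H2-D1 X2 to Y: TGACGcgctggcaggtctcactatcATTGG
B2m X2 to Y: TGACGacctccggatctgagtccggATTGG
The same pair at the same distance occurred in 30 of 32851 RefSeq promoter windows (0.0913%), while single motifs were common, with TGACG in 17.8% and CCAAT in 33.8% of windows. *H2-K1* (chr17:34000430-34000458) and *H2-D1* (chr17:35262923-35262951) also shared a kB consensus, matched at 2 overlapping positions, and an inverted interferon response core 11 bases after the first of these matches.
H2-K1 kB to interferon core: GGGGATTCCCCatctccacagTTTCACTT
H2-D1 kB to interferon core: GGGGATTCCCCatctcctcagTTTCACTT
That second pair was found in 5 windows (0.0152%), which belonged to *H2-D1*, *H2-K1*, *H2-Q4* and *H2-Q6*. For both pairs the search used only the distance and direction seen in the promoters shown. The low shares therefore follow from that choice and do not test how unusual the pairs are. The AANNGAAA core alone was in 21.31% of all windows and the kB consensus in 5.001%. A longer stretch, from 200 to 21 bases before the start site, shows how the boxes are placed in *H2-K1* (chr17:34000354-34000533, minus strand) and in *B2m* (chr2:122147487-122147666, plus strand).
H2-K1 promoter: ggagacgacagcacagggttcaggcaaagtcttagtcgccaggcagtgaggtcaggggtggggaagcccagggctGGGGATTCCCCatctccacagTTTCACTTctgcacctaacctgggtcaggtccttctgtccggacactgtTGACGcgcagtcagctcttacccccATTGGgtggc
B2m promoter: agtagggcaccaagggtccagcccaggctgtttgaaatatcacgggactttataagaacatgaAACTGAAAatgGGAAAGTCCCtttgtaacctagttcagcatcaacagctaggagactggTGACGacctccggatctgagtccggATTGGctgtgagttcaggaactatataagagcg
Of the 8 genes with a window, 5 held an X2 core (*H2-K1*, *H2-D1*, *B2m*, *Tap1* and *Psmb9*), 6 a Y box, 3 a kB consensus and 3 the interferon core, which in *B2m* stood before the kB consensus and not inverted. The RefSeq start sites of *Tap1* and *Psmb9* face away from each other with 225 bases between them, so the X2 core and the Y box between them, 1 of each, were counted for both genes. These matches describe letters and say nothing of which factor was bound in these tumors.

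None of the 10 genes passed the test between genotypes. In edgeR's quasi-likelihood test, 0 of the 10 reached an adjusted p below 0.05, against 12.7% of all genes tested, and DESeq2 and limma voom also called 0. At an unadjusted p below 0.05 there were 2, *Tapbp* and *Erap1*, where 29.9% of all genes were below it. The log2 fold change was below 0 in 9 of the 10, with a median of -0.36 beside 0.029 over all genes tested. With a sex term in the fit all 10 were below 0 and each was lower than without it, as given after the ratios. The *K-Ctrl* and *K-Setd2KO* values overlapped for all 10, whereas groups did not overlap for 20.3% of all genes. Since whole tumors were sequenced, fewer cells of a type and less RNA per cell cannot be told apart. Each value below is in CPM, read counts relative to the TMM-scaled library size, for the 4 tumors of each group in the order of replicates 1 to 4, and the *K-Ctrl* tumors are called the controls.

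The classical heavy chains present peptides directly. *H2-K1* (ENSMUSG00000061232.15, chromosome 17, 33996017 to 34000333, minus strand) measured 785, 1959.8, 1059.9 and 2327 CPM in the controls, against 2359, 2123, 565 and 668 CPM in *K-Setd2KO*. The *K-Setd2KO* tumors lay far apart, with replicate 1 just above the highest control, replicate 2 above 3 of the 4 controls and replicates 3 and 4 below every control. The log2 fold change was -0.10 (SE 0.53, 95% interval -1.30 to 1.10, adjusted p = 0.920). *H2-D1* (ENSMUSG00000073411.11, chromosome 17, 35262730 to 35267499, plus strand), the other heavy chain, measured 775, 1541, 1073 and 1561 CPM in the controls, against 1858, 1702, 695 and 744 CPM in *K-Setd2KO*. The same *K-Setd2KO* tumors were high and low, and the lowest control was again replicate 1. Its log2 fold change was 0.014 (SE 0.37, 95% interval -0.83 to 0.86, adjusted p = 0.984). Of the 50-base windows along the longest coding transcript, 8.79% for *H2-K1* and 14.3% for *H2-D1* also occurred in transcripts of other genes, mainly other heavy chains, and how such reads were counted is not given in the sources used here.

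*B2m* (ENSMUSG00000060802.8, chromosome 2, 122147686 to 122153083, plus strand), the light chain that pairs with class I heavy chains, measured 938, 2704, 1335 and 2000.2 CPM in the controls, against 1696, 1555, 328 and 463 CPM in *K-Setd2KO*. Replicates 3 and 4 of *K-Setd2KO* lay below all controls, and replicates 1 and 2 between control replicates 3 and 4. Across the 8 tumors *B2m* spanned 8.24-fold, and the log2 fold change of -0.79 (SE 0.56, 95% interval -2.05 to 0.47, adjusted p = 0.381) was within the spread of the replicates. No 50-base window of its transcript was found in another gene's.

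**Figure D1:**
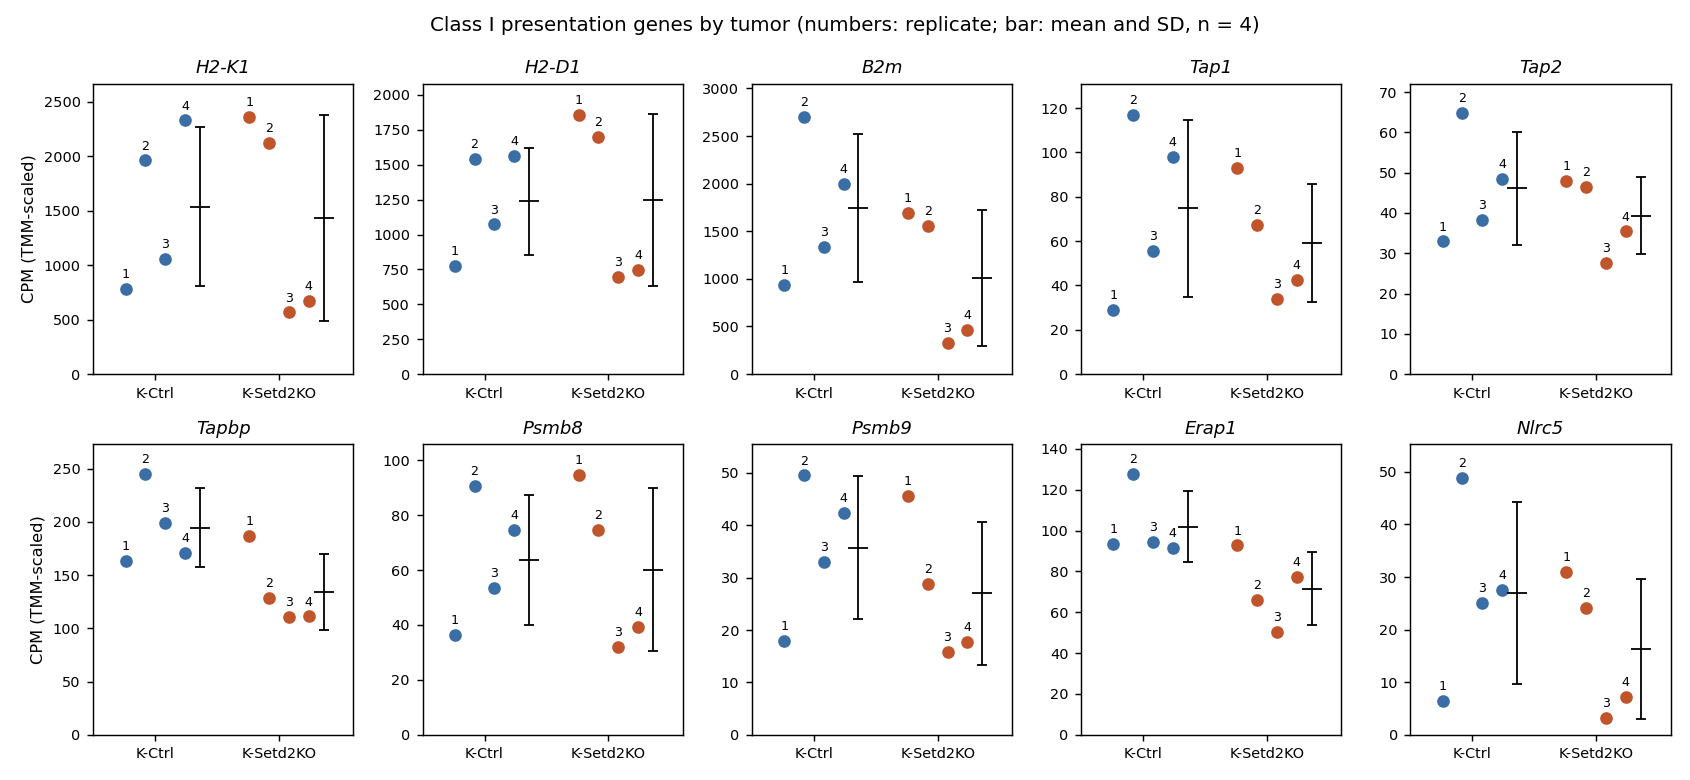
CPM of the 10 class I presentation genes in each tumor, with the replicate number above each point and the mean ± SD of 4 tumors as a black bar, on linear axes that start at 0. The 2 groups overlap in all 10 panels, and *K-Setd2KO* replicate 3 is the lowest and replicate 1 the highest of its group in every panel.

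*Tap1* and *Tap2* encode the subunits of the peptide transporter. *Tap1* (ENSMUSG00000037321.17, chromosome 17, 34187553 to 34197225, plus strand) measured 28.99, 117, 55.5 and 97.9 CPM in the controls, against 93.1, 67.2, 33.96 and 42.6 CPM in *K-Setd2KO*. Its lowest tumor was control replicate 1, not a *K-Setd2KO* tumor, and the log2 fold change was -0.33 (SE 0.45, 95% interval -1.35 to 0.69, adjusted p = 0.664). *Tap2* (ENSMUSG00000024339.12, chromosome 17, 34203527 to 34216321, plus strand) measured 32.9, 64.9, 38.3 and 48.5 CPM in the controls, against 48.02, 46.4, 27.6 and 35.4 CPM in *K-Setd2KO*. It was highest in control replicate 2 and lowest in *K-Setd2KO* replicate 3, over a narrower range, 2.35-fold against 4.03-fold for *Tap1*, with a log2 fold change of -0.23 (SE 0.25, 95% interval -0.78 to 0.33, adjusted p = 0.580).

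*Tapbp* (ENSMUSG00000024308.14, chromosome 17, 33915899 to 33929288, plus strand) encodes tapasin, the chaperone that holds empty heavy chains at the transporter. It measured 164, 245, 199 and 170.5 CPM in the controls, against 186, 129, 111 and 111 CPM in *K-Setd2KO*. *K-Setd2KO* replicates 2, 3 and 4 lay below every control, and replicate 1 lay above 2 of the 4 controls. The log2 fold change of -0.53 (SE 0.20, 95% interval -0.99 to -0.078, adjusted p = 0.114) did not pass the threshold, although its interval lay below 0. Without *K-Setd2KO* replicate 1 it was -0.73 with an adjusted p of 0.0370 in edgeR, in a fit that called 9.35% of all genes.

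*Psmb8* and *Psmb9* encode immunoproteasome subunits. *Psmb8* (ENSMUSG00000024338.14, chromosome 17, 34197721 to 34201454, plus strand) measured 36.5, 90.5, 53.6 and 74.5 CPM in the controls, against 94.7, 74.6, 32.1 and 39.2 CPM in *K-Setd2KO*. Controls and *K-Setd2KO* tumors covered nearly the same range, and the log2 fold change was -0.078 (SE 0.39, 95% interval -0.95 to 0.80, adjusted p = 0.915). *Psmb9* (ENSMUSG00000096727.2, chromosome 17, 34181988 to 34187764, minus strand) measured 17.97, 49.5, 33.1 and 42.3 CPM in the controls, against 45.5, 28.8, 15.9 and 17.8 CPM in *K-Setd2KO*. Control replicate 1 was as low as the lower *K-Setd2KO* tumors, and the log2 fold change was -0.39 (SE 0.39, 95% interval -1.28 to 0.50, adjusted p = 0.542). The GENCODE M21 bounds of *Psmb9* and *Tap1*, unlike their RefSeq start sites, overlap on opposite strands, and the strand setting of the count is not given in the sources used here. The bounds of *B2m*, *Tap2*, *Tapbp*, *Psmb8* and *Nlrc5* also overlap another gene on the opposite strand. Those of *Tapbp* and *Nlrc5* overlap another gene on the same strand as well, so the same doubt applies to these counts.

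*Erap1* (ENSMUSG00000021583.6, chromosome 13, 74639872 to 74691875, plus strand), the aminopeptidase that trims peptides to the length class I can hold, measured 93.6, 128, 94.4 and 91.5 CPM in the controls, against 92.7, 66.01, 50.3 and 77.4 CPM in *K-Setd2KO*. Control replicate 2 stood above the other controls, which lay close together, and *K-Setd2KO* replicates 2, 3 and 4 were below every control. The log2 fold change was -0.51 (SE 0.20, 95% interval -0.95 to -0.064, adjusted p = 0.121), again with an interval below 0 and an adjusted p above the threshold.

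*Nlrc5* (ENSMUSG00000074151.13, chromosome 8, 94434356 to 94527272, plus strand), the class I transactivator, measured 6.52, 48.8, 25.1 and 27.5 CPM in the controls, against 30.97, 24.2, 3.23 and 7.19 CPM in *K-Setd2KO*. Control replicate 1 and *K-Setd2KO* replicates 3 and 4 were the 3 low tumors, and the whole range was 15.1-fold, the widest of the 10 genes. The log2 fold change was -0.70 (SE 0.73, 95% interval -2.35 to 0.95, adjusted p = 0.562), an interval that spans large changes in either direction.

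**Figure D2:**
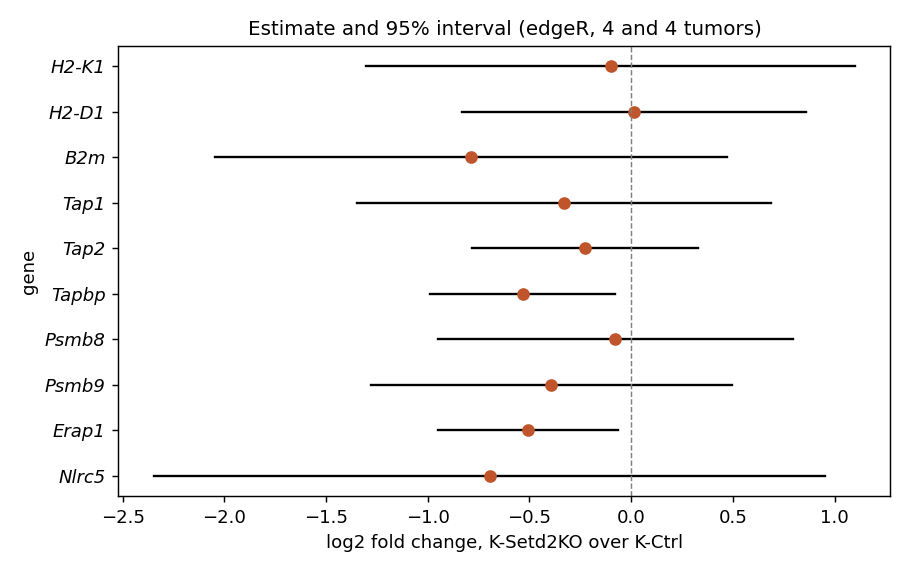
Log2 fold change of *K-Setd2KO* over *K-Ctrl* for each gene (points) with its 95% interval from the edgeR fit (lines), 4 tumors a group. The intervals of *Tapbp* and *Erap1* lie below 0, those of the other 8 genes include 0, and *Nlrc5* has the widest.

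Levels were compared between genes as TPM, in which counts are divided by gene length, using the exon lengths in the table. Those lengths sum all exons of a gene, 2608 bases for *H2-K1* and 3659 for *Psmb9*. Their longest coding transcripts hold 1619 and 1352 bases. The order of genes below depends on that choice of length, and other lengths were not tried. *B2m* was the most abundant, at 5778 ± 2551 TPM over controls and 3209 ± 2144 over *K-Setd2KO* tumors (SD, n = 4 each), and it was above *H2-K1* in 8 of 8 tumors. *H2-K1* came next, at 1670.4 ± 776 and 1500.0 ± 929 TPM, followed by *H2-D1* at 1366 ± 409 and 1339 ± 591 TPM, and the order of these heavy chains held in 5 of 8 tumors only. Over the 8 tumors the loading and cutting genes had mean levels of 142 TPM for *Tapbp*, 63.7 for *Psmb8*, 61.4 for *Erap1*, 34.5 for *Tap1*, 31.98 for *Tap2* and 24.2 for *Psmb9*. *Psmb8* was above *Erap1*, and *Tap1* above *Tap2*, in 4 of 8 tumors each, so these neighbours could not be ordered with these lengths. *Nlrc5* was the least abundant at 7.16 TPM, below *Psmb9* in 8 of 8 tumors.

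Most of the 10 genes varied widely among tumors of the same group. The SD of log2 CPM within a group was 1.37 for *Nlrc5*, 0.97 for *B2m*, 0.93 for *H2-K1* and 0.79 for *Tap1*, beside a median of 0.33 over all genes tested. *Erap1* and *Tapbp* were the steadiest, at 0.31 each, below that median, but among genes within 0.5 of their mean log2 CPM they stood at the 75.5 and 75.7 percentiles of the SD. After each gene was centred on its mean log2 CPM, the mean of the 10 genes was -0.53, 0.82, 0.089 and 0.50 for control replicates 1 to 4, against 0.57, 0.24, -1.03 and -0.66 for *K-Setd2KO* 1 to 4. *K-Setd2KO* replicate 3 was the lowest of its group and replicate 1 the highest for 10 of 10 genes, control replicate 1 was the lowest control for 9 of 10, and *K-Setd2KO* replicates 3 and 4 were both below replicates 1 and 2 for 9 of 10. The exception in both counts of 9 was *Erap1*. All 10 genes are in the same 8 libraries, so these counts are not independent of each other. *Irf1*, *Psmb10* and *Cd74*, described below, had the same lowest and highest *K-Setd2KO* tumors, and the share over all genes was not counted.

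Genes outside the pathway lists with the most similar centred profile over the 8 tumors, by the root mean square difference from the mean of the 10, were *Frmd5* (0.224 on the log2 scale), *Il18bp* (0.235), *Rtp4* (0.266), *Ighd* (0.270) and *Scube1* (0.280). None of the 5 passed the edgeR test between genotypes, with adjusted p-values from 0.293 to 0.568, and with fold changes in log2 of -0.64 to -0.36. The likeness is a description over 8 tumors. Genes chosen for it would tend to have small fold changes below 0 as well, so that test adds nothing independent.

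**Figure D3:**
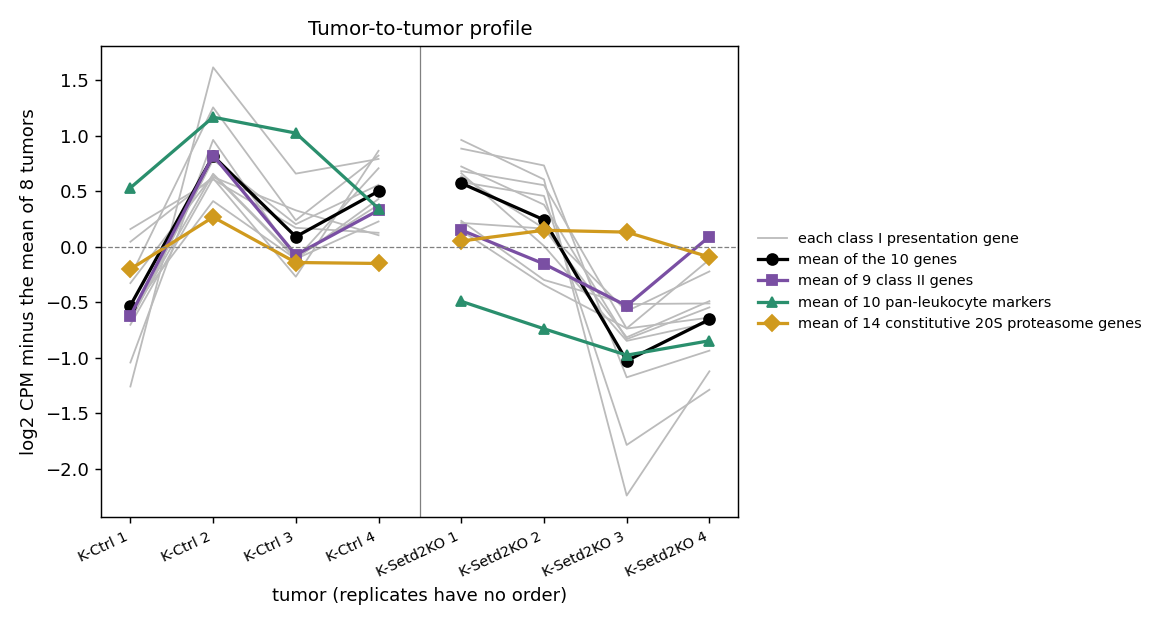
Centred log2 CPM (value minus the gene's mean over 8 tumors) for each class I presentation gene (grey), their mean (black) and the means of 3 other lists, by tumor. Lines only join the values of one gene or list within a group. The class I mean is lowest in *K-Setd2KO* replicate 3 (-1.03) and highest in control replicate 2 (0.82), the pan-leukocyte mean is above 0 in all controls and below 0 in all *K-Setd2KO* tumors, and the constitutive proteasome mean stays within 0.27 of 0.

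Other genes of the pathway were taken from 5 lists with 77 genes, of which 72 passed the filter. edgeR called 2 of the 72 lower in *K-Setd2KO* and 0 higher, where 7.74% of all genes tested were lower and 4.97% higher. The median log2 fold change of the 72 was -0.048, and 12 had an unadjusted p below 0.05, a smaller share than the 29.9% of all genes.

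Among 19 further heavy chains and class I-like genes, 15 were tested and 1 was called. There were 6 at an unadjusted p below 0.05, and 12 of the 15 had a log2 fold change below 0, with a median of -0.30. *H2-T24*, a nonclassical heavy chain gene, measured 57.1, 21.35, 44.5 and 14.1 CPM in the controls, against 12.6, 10.7, 2.40 and 5.48 CPM in *K-Setd2KO*. All 4 *K-Setd2KO* tumors were below all controls, with a log2 fold change of -2.11 (SE 0.58, 95% interval -3.42 to -0.81, adjusted p = 0.0450). The call depended on the fit. It was lost in 7 of the 8 fits without 1 tumor, all but that without control replicate 4, and with no filter on low counts, limma voom, the sex term and the replicate block, with adjusted p-values of 0.0290 to 0.109 without 1 tumor and up to 0.148 in the other fits. *H2-Q6* and *H2-Q7*, nonclassical heavy chain genes of the Qa-2 type that are named here after their values were seen, had their low *K-Setd2KO* tumors in common with the classical chains. *H2-Q6* measured 74.6, 376, 135 and 356 CPM in the controls, against 279.7, 346, 25.7 and 34.6 CPM in *K-Setd2KO*, and *H2-Q7* measured 44.8, 303, 87.99 and 267 CPM in the controls, against 184, 256, 13.01 and 19.7 CPM in *K-Setd2KO*. For both, replicates 3 and 4 of *K-Setd2KO* were the lowest 2 tumors and control replicate 2 the highest control, with log2 fold changes of -0.45 (SE 0.85, 95% interval -2.38 to 1.48, adjusted p = 0.762) and -0.57 (SE 0.95, 95% interval -2.71 to 1.57, adjusted p = 0.727). About 31.97% and 34.9% of the 50-base windows of these 2 transcripts occurred in other genes, so their counts are uncertain.

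In the list of peptide supply and loading partners, 1 of 16 genes was called. *Lnpep*, an endosomal aminopeptidase also known as IRAP that trims peptides for cross-presentation, measured 100.3, 115, 93.8 and 77.5 CPM in the controls, against 61.5, 54.3, 56.1 and 60.9 CPM in *K-Setd2KO*. The groups did not overlap, and the log2 fold change was -0.73 (SE 0.14, 95% interval -1.04 to -0.43, adjusted p = 0.0126), a call that held in all 16 alternative fits. *Psmb10*, the remaining inducible catalytic subunit, had a log2 fold change of -0.43 (SE 0.26, 95% interval -1.03 to 0.16, adjusted p = 0.302). *Psme1* and *Psme2* encode the PA28 proteasome activator and had log2 fold changes of 0.25 (SE 0.15, 95% interval -0.083 to 0.58, adjusted p = 0.289) and 0.018 (SE 0.19, 95% interval -0.42 to 0.45, adjusted p = 0.961). None of the 14 constitutive 20S proteasome genes was called by edgeR, with 0 at an unadjusted p below 0.05 and a median of 0.078.

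Of the interferon-gamma route and class I regulators, 0 of 18 tested genes was called by edgeR, with 4 at an unadjusted p below 0.05 and a median of -0.21. *Irf1*, an interferon-induced activator of class I genes, had a log2 fold change of -0.22 (SE 0.23, 95% interval -0.72 to 0.29, adjusted p = 0.561). The cytokine gene *Ifng* did not pass the filter, with 0 to 2.10 CPM among controls and 0 to 0.411 among *K-Setd2KO* tumors. Class II genes, which present peptides from outside the cell and are made by professional antigen-presenting cells and by alveolar type 2 cells, had 0 of 9 called by edgeR (1 with the sex term, *H2-Oa*), 1 at an unadjusted p below 0.05 and a median of -0.047.

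Ratios within a tumor do not depend on the library scaling, and 8 pairs were tested by exact permutation, two-sided, of the genotype labels. The 70 ways to split 8 tumors into 4 and 4 allow no p below 0.0286. None of the 8 passed after Benjamini-Hochberg adjustment, which at this size would need at least 5 of the 8 pairs at that smallest p, so a single pair could not pass. The log2 ratio of *H2-K1* to *B2m* was -0.26, -0.46, -0.33 and 0.22 for control replicates 1 to 4, against 0.48, 0.45, 0.78 and 0.53 for *K-Setd2KO* 1 to 4. Every *K-Setd2KO* tumor was above every control, and the ratio was higher by 0.77 on the log2 scale, or 1.70-fold (exact permutation p = 0.0286, adjusted p = 0.229). Leaving out 1 tumor at a time gave 0.68 to 0.91. The ratio of *H2-K1* to *H2-D1* differed by -0.18 (exact permutation p = 0.457) with overlapping groups.

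*Tap1* to *Tap2* differed by -0.039 on the log2 scale (exact permutation p = 0.914). The inducible proteasome subunits were also set against the constitutive subunits they replace. *Psmb9* to *Psmb6* differed by -0.66 (exact permutation p = 0.286), *Psmb10* to *Psmb7* by -0.52 (p = 0.171) and *Psmb8* to *Psmb5* by -0.43 (p = 0.400), all with overlap between the groups. *K-Setd2KO* replicate 1 had the highest ratio of its group in each of these 3 pairs.

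Class I was compared with class II through *B2m* and *Cd74*, the class II invariant chain. Their log2 ratio was -0.76, -0.078, -0.65 and -0.44 for control replicates 1 to 4, against -0.64, -0.75, -2.40 and -2.27 for *K-Setd2KO* 1 to 4. *K-Setd2KO* replicates 1 and 2 lay among the controls while replicates 3 and 4 lay far below every tumor, and *Cd74* itself measured 1590.2, 2853, 2093 and 2711 CPM in the controls, against 2648, 2623, 1735 and 2229.8 CPM in *K-Setd2KO*. The difference was -1.04 (exact permutation p = 0.143). *Nlrc5* to *Ciita*, the class II transactivator, was also lowest in *K-Setd2KO* replicates 3 and 4, with replicate 2 above every control. Its log2 ratios were -2.27, -0.90, -1.03 and -1.65 for control replicates 1 to 4, against -1.24, -0.55, -3.51 and -3.67 for *K-Setd2KO* 1 to 4, and the groups differed by -0.78 (exact permutation p = 0.371).

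**Figure D4:**
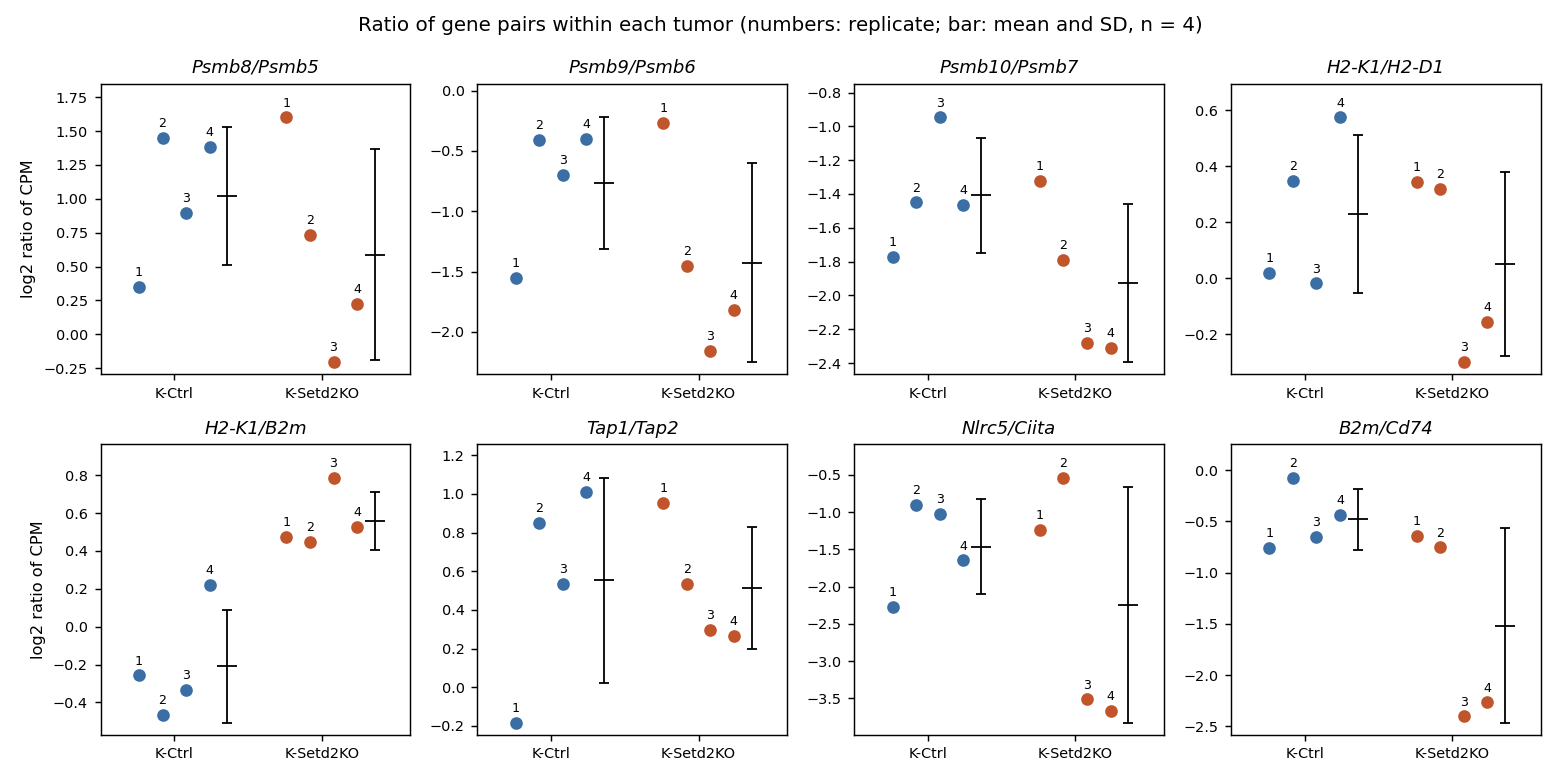
Log2 ratio of CPM for 8 gene pairs in each tumor, with the replicate number above each point and the mean ± SD of 4 tumors as a black bar. Only *H2-K1* to *B2m* has no overlap between *K-Ctrl* and *K-Setd2KO*, and in *B2m* to *Cd74* and *Nlrc5* to *Ciita* the *K-Setd2KO* replicates 3 and 4 stand apart at the bottom.

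The sex of the tumors, read from *Xist* and the Y-linked genes *Ddx3y*, *Eif2s3y*, *Kdm5d* and *Uty*, was not balanced. *K-Ctrl* had 1 female (replicate 2) and 3 male tumors, and *K-Setd2KO* had 3 female and 1 male (replicate 3). Within the males the difference in mean log2 CPM was below 0 for all 10 genes, from -0.51 for *Tap2* to -2.31 for *Nlrc5*, and within the females from -0.21 for *H2-D1* to -1.47 for *Nlrc5*, each with 1 tumor in one of the groups and so with no test. When edgeR was given the sex of each tumor as well, *Erap1* passed, at -0.79 (adjusted p = 0.0233), where 8.29% of all genes were called. *B2m* was then -1.62 (adjusted p = 0.108) and *Nlrc5* -1.85 (adjusted p = 0.155). The other log2 fold changes also moved down, to -0.74 for *H2-K1*, -0.41 for *H2-D1*, -0.81 for *Tap1*, -0.56 for *Tap2*, -0.73 for *Tapbp*, -0.57 for *Psmb8* and -0.82 for *Psmb9*. Their adjusted p-values in that fit ran from 0.0587 to 0.568. The ratio of *H2-K1* to *B2m* differed by 0.91 within males and 0.95 within females.

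Markers of several other cell types were called lower in *K-Setd2KO*. Pan-leukocyte markers had a median of -1.75 in log2 fold change, beside -1.68 for macrophage, -1.66 for T and NK cell and -1.85 for B and plasma cell markers, although edgeR called no gene of the last 2 lists. Of 10 pan-leukocyte markers, 8 were called lower in *K-Setd2KO*, and their summed level was 1244 to 2185 CPM among controls and 665 to 861 among *K-Setd2KO* tumors. *Lcp1*, an actin-bundling protein, had the highest level of that list at 716 ± 203 CPM over controls and 469.5 ± 113 over *K-Setd2KO* tumors (SD, n = 4 each), and *Ptprc*, which encodes CD45, measured 179, 347, 253 and 144 CPM in the controls, against 61.3, 45.1, 57.3 and 54.1 CPM in *K-Setd2KO*. *Ptprc* was low in all 4 *K-Setd2KO* tumors, while *H2-K1* and *H2-D1* were above at least 3 controls in replicates 1 and 2 and below every control in replicates 3 and 4. The mean centred log2 CPM of the macrophage markers was 0.86, 1.00, 1.02 and 0.22 for control replicates 1 to 4, against -0.028, -0.72, -1.21 and -1.13 for *K-Setd2KO* 1 to 4, so that control replicate 4 was the lowest control. Macrophage markers were called lower for 6 of 11, with sums of 567 to 1666 CPM among controls and 194 to 374 among *K-Setd2KO* tumors, led by the mannose receptor gene *Mrc1* at 386 ± 134 CPM over controls and 82.8 ± 11.5 over *K-Setd2KO* tumors (SD, n = 4 each). Dendritic cell markers were called lower for 3 of 7 tested, with sums of 35.2 to 69.8 CPM among controls and 9.93 to 21.34 among *K-Setd2KO* tumors, and the transcription factor gene *Zbtb46* led at 14.4 ± 4.21 CPM over controls and 5.35 ± 2.84 over *K-Setd2KO* tumors. Endothelial markers were called lower for 2 of 10, with sums of 604 to 2220.4 CPM among controls and 244 to 626 among *K-Setd2KO* tumors and with *Pecam1*, which encodes CD31, at 284 ± 169 CPM over controls and 108 ± 49.99 over *K-Setd2KO* tumors. Fibroblast markers were called lower for 2 of 8, with sums of 539 to 1212 CPM among controls and 155 to 618 among *K-Setd2KO* tumors and the collagen gene *Col3a1* at 275 ± 89.5 CPM over controls and 102 ± 70.6 over *K-Setd2KO* tumors.

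T and NK cell markers (0 of 9 tested called by edgeR, 4 at an unadjusted p below 0.05) summed to 26.8 to 123 CPM among controls and 5.44 to 41.5 among *K-Setd2KO* tumors, and B and plasma cell markers (0 of 9 called, 3 unadjusted) to 704 to 8341 CPM among controls and 289.6 to 3038 among *K-Setd2KO* tumors. Their most abundant genes were *Cd4*, the co-receptor of helper T cells, at 9.76 ± 10.4 CPM over controls and 2.96 ± 3.36 over *K-Setd2KO* tumors, and the immunoglobulin light chain gene *Igkc* at 2563 ± 2308 CPM over controls and 895 ± 1043 over *K-Setd2KO* tumors (SD, n = 4 each). The centred mean of the T and NK cell markers was 0.12, 2.24, 0.17 and 0.82 for control replicates 1 to 4, against 0.64, -1.51, -1.99 and -0.48 for *K-Setd2KO* 1 to 4. For the B and plasma cell markers it was -0.86, 2.12, 0.042 and 1.27 for control replicates 1 to 4, against 0.13, -0.33, -1.94 and -0.43 for *K-Setd2KO* 1 to 4. In both lists, as in the class I genes, control replicate 1 and *K-Setd2KO* replicate 3 were the lowest of their groups and control replicate 2 and *K-Setd2KO* replicate 1 the highest. The centred means of the class II genes, the interferon-gamma route list and the class I-like heavy chains shared these lowest and highest tumors. By summed CPM the B and plasma cell list was instead highest of its group in *K-Setd2KO* replicate 2, at 3038 against 750 in replicate 1. Neutrophil markers (0 of 5 tested called, 1 unadjusted) summed to 16.1 to 20.8 CPM among controls and 14.3 to 57.3 among *K-Setd2KO* tumors, with *Elane* at 0 counts in all 8 tumors and the chemokine receptor gene *Cxcr2* at 4.39 ± 1.16 CPM over controls and 18.95 ± 17.9 over *K-Setd2KO* tumors. Epithelial and alveolar type 2 markers were called higher for 3 and lower for 1 of 14, with sums of 51124 to 68058 CPM among controls and 56490.1 to 81199.8 among *K-Setd2KO* tumors, and *Sftpc* measured 25164 ± 5046 CPM over controls and 25119 ± 3714 over *K-Setd2KO* tumors (SD, n = 4 each). The part of these cells in the class I values was not tested.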

How the data were processed

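mRNA of 8 tumors was measured with a stranded poly(A) kit (TruSeq Stranded mRNA). The authors deposited raw counts per gene, whole numbers with no normalization, with 1 column per tumor. The submitters' processing notes name STAR 2.5.2b, featureCounts 1.5.0-p1 and GRCm38.p4. The annotation release, the strand setting and the treatment of reads with several matches are not given in the sources used here. Gene symbols came from GENCODE M21, which held 99.26% of the identifiers. Total counts ranged from 5806599 to 21290402 per tumor, and members had between 35 and 45923 counts per tumor. Counts that a gene shares with near-identical copies could not be separated.

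Genotypes were compared across all genes in edgeR 4.0.16 (R 4.3.3) with the quasi-likelihood test (robust fit, TMM scaling, filterByExpr) and Benjamini-Hochberg adjustment over 14929 genes, at a threshold of 0.05. Standard errors, and from them the 95% intervals, were obtained from the log2 fold change and the F value. Log2 CPM used a prior count of 2. DESeq2 1.42.0, limma voom (limma 3.58.1), other scalings and filters, a sex term, a replicate block and leaving out each tumor were the alternatives. Ratios were tested in scipy 1.17.1. The 10 members, the pathway and marker lists and the tests were chosen with earlier results of these data known. Named genes are the members, *Setd2*, the genes of the ratios, up to 4 called genes of each pathway list, *Irf1*, *Psmb10*, *Psme1*, *Psme2*, the 5 genes of most similar profile and the most abundant marker of each marker list. Others were chosen after their values were seen. An allele that both groups carry and 1 further gene of this rule are not reported here. Promoter sequences are from RefSeq on GRCm38.p6.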

Additional observations from a re-analysis of the deposited data

Results flagged for a closer look

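*Erap1*, the peptide-trimming aminopeptidase, measured 128 CPM in control replicate 2, apart from the other 3 controls at 91.5 to 94.4 CPM. The gap was 0.920 of the range of the controls, above Dixon's limit for 4 samples. It was the only such value among 36 groups of 4 examined, where chance gives about 1.8.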

How the results depend on the processing

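No class I presentation gene was called by edgeR under DESeq2 size factors, upper-quartile factors, no filter or a minimum of 10 counts in every tumor, nor by DESeq2 or limma voom. A sex term gave 1 call (*Erap1*), and leaving out 1 tumor at a time gave 0 to 1 (*Tapbp* without *K-Setd2KO* replicate 1). Among the 72 other pathway genes the 2 calls (*H2-T24* and *Lnpep*) became 5 with DESeq2 (also *Cd1d1*, *Fcgrt* and *Ptpn2*), were 2 with *Fcgrt* in place of *H2-T24* in limma voom and 2 with the class II gene *H2-Oa* in its place under the sex term, and 1 to 4 when 1 tumor was left out (4 without control replicate 4), and *H2-T24* lost its call in most of these fits. The ratios had 0 calls of 8 in every setting (0 to 0 without 1 tumor), but with 3 tumors against 4 the smallest possible p is 0.0571, so none could pass there. Over 16 alternatives, 142 of 160 fold changes of the 10 genes kept their direction and their side of the threshold, 2 gained a call and 16 changed sign. The sign changes were those of genes near 0. *H2-D1* was -0.016 with at least 10 counts in every tumor, -0.11 with limma voom and -0.41 with the sex term, and without 1 tumor *H2-D1* ranged from -0.24 to 0.22, *H2-K1* from -0.45 to 0.17, *Psmb8* from -0.38 to 0.14 and the *Tap1* to *Tap2* ratio from -0.28 to 0.11. The other genes kept their sign without 1 tumor but moved in size, *Nlrc5* from -1.20 to -0.25, *B2m* from -1.15 to -0.49, *Psmb9* from -0.77 to -0.20, *Tap1* from -0.64 to -0.032, *Tap2* from -0.36 to -0.019, *Tapbp* from -0.73 to -0.40 and *Erap1* from -0.66 to -0.37. The lowest value came without *K-Setd2KO* replicate 1 for 9 of the 10 genes, all but *Tap2*, and the highest without control replicate 2 or 4 or *K-Setd2KO* replicate 3. Over all genes tested the 1897 calls became 3193 with DESeq2, which was run over 28425 genes with its own filter, 1237 with the sex term and 763 to 2058 without 1 tumor. The cause of these changes was not tested.

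Replicate numbers are shared between the groups. Across genes, deviations from the group mean in same-numbered tumors had correlations of -0.074, -0.030, 0.19 and -0.023 for numbers 1 to 4. The value for number 3 was the highest of any control with any *K-Setd2KO* tumor. Whether same-numbered tumors share more than a number cannot be told from these values. With a replicate block, 0 of the 10 genes, 3 of the 72 other pathway genes (*Fcgrt*, *Lnpep* and *Ptpn2*) and 1341 of all genes were called, *H2-D1* was -0.084, and no ratio passed when labels were permuted within pairs, where the smallest possible p is 0.125 and none could pass. With 4 tumors a group, the intervals of the fold changes limit what can be seen.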

Other observations

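*H2-Q10*, a class I heavy chain gene known for its expression in liver, measured 19.02 CPM in control replicate 1 and 0.185 to 1.09 CPM in the other 7 tumors. *H2-M2*, another class I heavy chain gene, measured 8.19, 92.6, 12.9 and 66.8 CPM in the controls, against 65.7, 7.65, 3.97 and 9.76 CPM in *K-Setd2KO*. *H2-Q10* and *H2-M2* were chosen after their values were seen, and neither passed the edgeR test (adjusted p = 0.163 and 0.533). *Ptpn2*, a phosphatase that dampens cytokine receptor signaling, was higher in all 4 *K-Setd2KO* tumors than in any control, at 62.97, 91.9, 92.98 and 68.01 CPM in the controls, against 114, 164, 120.0 and 98.2 CPM in *K-Setd2KO*, and edgeR put the change at 0.65 (SE 0.19, adjusted p = 0.0557) in log2, just short of the threshold. The fits with no filter on low counts, with DESeq2 and with the replicate block called it, and the other 5 fits on all tumors and all 8 without 1 tumor did not. *Fcgrt*, which encodes the neonatal Fc receptor, had a log2 fold change of -1.14 (SE 0.37, adjusted p = 0.0757) in edgeR, and was called lower by DESeq2, limma voom, the replicate block fit and the fit without *K-Setd2KO* replicate 2. *Ptpn2* and *Fcgrt* were likewise named after their values were seen.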
